A study of Drosophila melanogaster with 60 samples.

Results

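The longest stretches of chromatin under RNA polymerase II in the brain of the male fly are described here. A domain was a peak of the deposited RNA polymerase II (RNAPolII) table that was at least 8000 bp long and whose values averaged 10 or more across the 30 RNAPolII libraries. This rule took 1966 of 21113 peaks, and it used length and mean level only, not genotype, housing, genes or the histone mark H3K4me3. No peak of 8000 bp or more had a mean under 10, so length alone decided membership. The shortest domain, over Strn-Mlck, was 8004 bp long with a mean value of 415, and the longest peak left out, near SdhCL, was 7997 bp long with a mean of 252.

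RNA polymerase II is the enzyme that transcribes protein-coding genes and many noncoding RNAs. It loads at the start of a gene, often pauses just downstream in flies, and then travels along the gene body, so that it can be found at promoters and also spread over transcribed stretches. H3K4me3, a methylation of histone H3, marks the start of active genes above all and is a separate readout on the same chromatin. Many long genes of neurons, among them those for adhesion molecules, ion channels and RNA-binding proteins, have large introns and span far more than 1 domain of the kind described here.

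Both proteins were mapped by CUT&RUN, which uses an antibody to bring a DNA-cutting enzyme to its target in permeabilised cells and sequences the fragments that are set free. Each RNAPolII library came from 30 pooled male brains and each H3K4me3 library from 15. The Or47b mutant carried Or47b2/3, the Or67d mutant Or67dGAL4/GAL4, the fru mutant fruLexA/4-40 and the dsx mutant dsxf00683-d07058/f01649-d09625, all in males (the first 3 labelled w+/Y and the dsx mutant w-/Y). Canton-S (CS) was the wild type, and the strain background of the mutants cannot be told apart from the mutated gene. Or47b and Or67d encode odorant receptors for pheromones, and fruitless (fru) and doublesex (dsx) encode transcription factors of male courtship and of sexual development. Males of each genotype were kept alone (SH) or in a group (GH), with 3 biological replicates each. Comparisons of a mutant with CS thus rest on 6 libraries a side, and comparisons of housing inside 1 genotype on 3 a side. The brains were whole and dissociated, so fewer cells of a type and less RNAPolII per cell cannot be told apart in any value below. DNA copy number was not measured, and its part in any change below was not tested.

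Sequencing gave from 3007711 to 6459322 reads in peaks per RNAPolII library, and from 2309386 to 9269525 per H3K4me3 library. The domains held 26.3% of the RNAPolII signal on 28.9% of the length covered by peaks. Their share of a library's signal was 23.6% to 23.7% in 3 libraries that stood apart (Or47b SH replicate 3, Or47b GH replicate 3 and Or67d GH replicate 3), against 25.4% to 27.3% in the other 27. Those 3 also had the highest summed values, 4116208 to 4152900 against 3586019 to 3849077, and results below that changed without them are given both ways. Of 6 neuronal marker genes, 4 had an H3K4me3 peak with a mean over 100 (brp 1539, Syt1 1550, nSyb 1213, para 925), and elav and Syn had 27.8 and 41.0. Of 5 testis markers, 4 (bam, Mst77F, dj, can) had no H3K4me3 peak, and none of 5 fat body markers and none of the 5 muscle markers with a match exceeded 100. Neither did any of 6 glial markers, while 3 of 6 photoreceptor markers and 1 of 5 blood cell markers (Pxn, 360) did. The highest RNAPolII value per kb over a marker gene was 60.6 (Syn) to 202 (brp) for the neuronal markers. It was 40.6 (Gs2) to 133 (nrv2) for the glial markers and 33.7 (Yp2) to 110 (FASN1) for the fat body markers. Photoreceptor markers gave 0.0 (ninaE, ninaC) to 72.2 (Rh3), and blood cell markers 0.0 (He) to 57.6 (srp). Testis markers gave 0.0 (Mst77F, can) to 61.1 (dj), and muscle markers 38.3 (up) to 59.2 (Mhc). A value of 0.0 stands for no deposited RNAPolII peak over the gene.

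The domains were 8004 to 13526 bp long, with a median of 9988 bp, and covered 20.1 Mb. The longest was 2R:7955108-7968634, over 7 genes that include nito and Septin5, with values from 853 to 1130 over the 30 libraries. It was followed by domains over ko (13514 bp), RpL23 and inaD (13513 bp), a stretch with no gene on 2L (13511 bp), Dscam1 (13510 bp) and Hipk (13501 bp). Dscam1, a cell surface receptor of neuron wiring with very many splice forms, had values from 407 to 611, and Hipk, which encodes a nuclear kinase, had 714 to 866. Lengths ended abruptly. Between 12000 and 13000 bp the table held 125 and 111 peaks per 500 bp, and from 13500 bp on it held 7, none longer than 13526 bp.

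Above that length the table held gaps instead. Of 20454 gaps between neighbouring peaks on X, 2 and 3, the median was 911 bp, and 1336 were longer than the longest peak. These long gaps had a median of 20506 bp, added to 35.4 Mb and took 26.8% of the span from the first to the last peak. They made up 55.6% of the length under no RNAPolII peak. The gaps held the mark of gene starts: of 4346 H3K4me3 peaks with a mean of at least 100, 785 (18.1%) lay over no RNAPolII peak, and 773 of these 785 (98.5%) lay in a long gap, spread over 377 gaps. The strongest of them lay over ana2, MrgBP and Ggamma1 on 2R, in a gap of 47090 bp, with an H3K4me3 value of 5341 ± 740 (SD over 30 libraries). Others lay over ATPsyngamma and yata (4830 ± 593, gap of 38163 bp), levy and wmd (3732 ± 431, gap of 118684 bp) and Vha36-1 (3688 ± 455, gap of 30704 bp), genes that include subunits of the mitochondrial and vacuolar proton pumps. The domains are therefore the longest in the deposited table, which may not hold every long stretch of RNAPolII. Whether longer peaks were called and left out of the table was not tested.

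**Figure D1:**
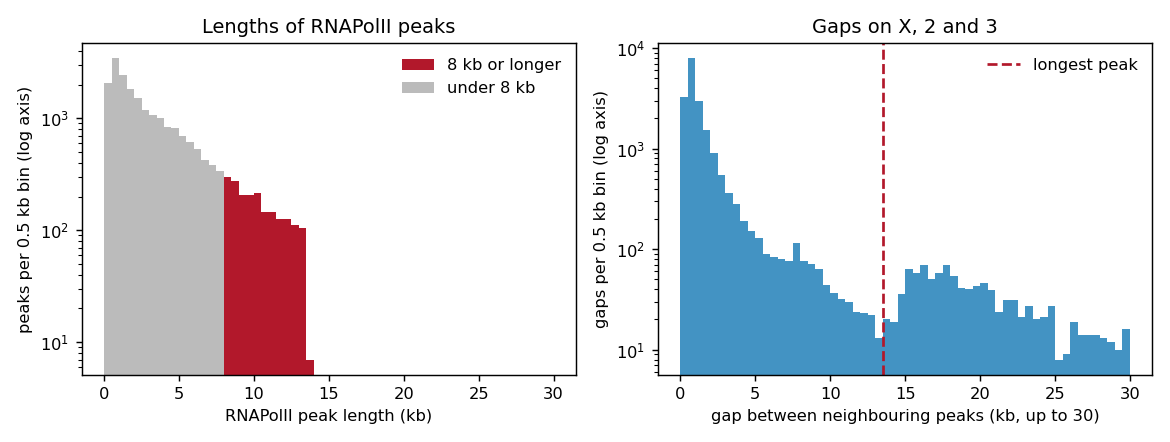
Left, number of RNAPolII peaks by length in kb (0.5 kb bins, log axis), with the 1966 domains in red and shorter peaks in grey. Right, number of gaps between neighbouring peaks on X, 2 and 3 by length up to 30 kb (log axis), with the longest peak, 13526 bp, as a dashed line. Lengths stop at the line, and gaps are fewest around it and more frequent again beyond it.

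The domains were about as dense as peaks of middle length. The mean value per kb, in normalised reads, had a median of 45.1 over the domains (interquartile range 37.5 to 56.9, full range 24.5 to 145). It was 44.1 in the 9425 peaks of 2000 to under 8000 bp and 36.3 in the 9722 shorter ones. Within the domains, length and value per kb had a Spearman correlation of -0.01 over 1966 domains, given as a description of peaks that share libraries. The range of single peaks was narrower than in the shorter classes, whose highest values per kb were 1542 and 2323.

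The densest domains lay over 4 to 7 genes each. The domain over alphaTub84B, which encodes the main alpha-tubulin, led with 145 per kb and values from 989 to 1940. The domain over Ttd14, slim and Lamtor2 had 141 per kb, that over Txl, Ppat-Dpck and scny 122, and that over FoxK, mRpL2 and Ufd1 114. By total value, the domain over the fatty acid synthase genes FASN2 and FASN1 was highest, with a mean of 1399 (1284 to 1564) and no H3K4me3 peak inside. The domain over nSyb, which encodes the synaptobrevin of neuronal vesicles, and over Bgb, alphaCOP, Bro and other genes followed with 1395 (1158 to 1695). Its strongest H3K4me3 peak had 2098, against 1213 as the highest over nSyb itself. The lowest means belonged to lncRNA:CR46353 (210), lncRNA:CR45613 and CG15059 (216), rols (222), CG12017 (226) and the Hox gene Ubx (230, from 177 to 294). The lowest single value in any library over any domain was 143.

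Most domains lay over genes, and many over several. Of the 1966, 123 (6.26%) lay over no gene span, against 14.1% of peaks of 2000 to under 8000 bp and 27.3% of shorter peaks. A single gene lay under 680 domains, 5 or more genes lay under 298, and the most was 15. In 450 domains the span of 1 gene held the whole domain. Value per kb was higher over more genes: the median was 35.7 in domains over no gene, 41.7 over 1 gene, 46.4 over 2 to 4 and 58.5 over 5 or more, and the Spearman correlation was 0.40 over 1966 domains. The domain with 15 genes lay on 2R over Ir56e and the mir-6 genes and had 45.4 per kb, and the domain over RpS25 and RpL3, ribosomal protein genes on 3R, held 11 genes and 82.1 per kb.

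In all, 4501 genes lay under a domain, 3862 of them protein-coding, and 322 genes lay under 2 or more. Among those with 5 domains were Lar, a receptor tyrosine phosphatase of axon guidance (37.1 to 87.3 per kb), bru1, an RNA-binding protein (34.2 to 41.9), Fur1, a furin-type protease (30.2 to 81.2), and tei (43.4 to 58.7). Domains of 1 gene thus differed in density by more than 2-fold at Lar and Fur1 and little at bru1. Where 2 domains were direct neighbours, which held for 316 pairs, the median gap between them was 762.5 bp, and in 215 pairs it was under 1000 bp.

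Domains were a small share of peaks on X. There, 168 of 4832 RNAPolII peaks on X (3.48%) were domains, against 1791 of 15627 (11.5%) on the arms of 2 and 3, 7 of 297 on chromosome 4 and none of 357 on Y and unplaced sequence. X peaks were shorter in general, with a median of 1350 bp against 2811 bp on 2 and 3, and had a median value per kb of 33.2 against 44.2. The domains on X had a median of 42.0 per kb against 45.6 on 2 and 3, a smaller difference than over all peaks. Domains on X included those over per, the clock gene (12368 bp, 543), Pdfr, the receptor of the clock neuropeptide (12206 bp, 402), and roX2, the noncoding RNA of X dosage compensation (13398 bp, 621).

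**Figure D2:**
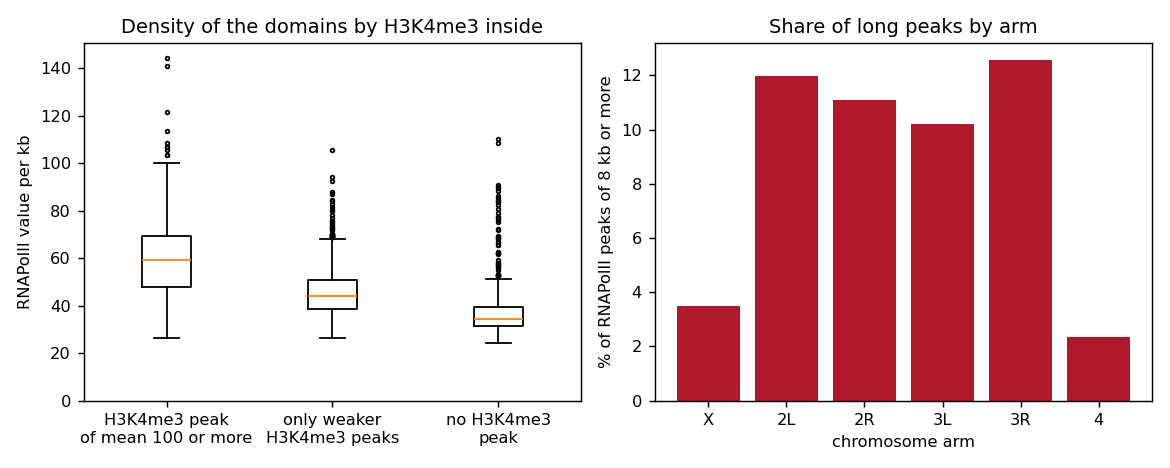
Left, mean RNAPolII value per kb of the 1966 domains by the H3K4me3 peaks inside them (boxes, quartiles with the median; whiskers, 1.5 interquartile ranges; points, domains beyond). Right, percent of RNAPolII peaks of 8 kb or more on each chromosome arm. Density is highest with a strong H3K4me3 peak (median 59.1), and X (3.48%) and 4 lie far below the other arms.

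The mark of gene starts was found in most domains. An H3K4me3 peak lay inside 1570 of the 1966 (79.9%), against 55.4% of peaks of 2000 to under 8000 bp and 14.2% of shorter ones. Per kb, the domains held 0.164 H3K4me3 peaks, beside 0.177 and 0.148 in these shorter classes. A strong H3K4me3 peak, with a mean of at least 100, lay in 590 domains (30.0%), only weaker ones in 980, and none in 396. RNAPolII was denser where the mark was strong: the median value per kb was 59.1 in the 590, 43.9 in the 980 and 34.6 in the 396, and the summed H3K4me3 value and RNAPolII per kb had a Spearman correlation of 0.66 over 1966 domains. Strong peaks were found in 0.813% of domains over no gene, 3.11% of domains inside 1 gene and 70.5% of domains over 5 or more genes.

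The domain with the most H3K4me3 peaks, 7, lay over EndoA, the endophilin of synaptic vesicle recycling, with Sgsh and Xrp1, and had RNAPolII values from 719 to 1323. Among the longest domains without any were those over ko (13514 bp, 29.9 per kb), CG31784 (13486 bp, 30.9), bon (13457 bp, 52.9) and a stretch with no gene on 3L (13422 bp, 34.4). A domain without H3K4me3 was not always sparse, as FASN2 and FASN1 (110 per kb) and the domain over Vta1 and Srrm234 (109 per kb) show. The domains over ko and CG31784 and the stretch on 3L lay under the median density of 45.1.

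Of all protein-coding genes on X, 2 and 3, 3854 of 13842 (27.8%) lay under a domain, and the lists of neuronal genes gave shares from 33.3% to 57.8%. Gene length, which raises the share of any list of long genes, was not taken into account. Of genes for cell adhesion and axon guidance, 26 of 45 matched (57.8%) lay under 47 domains, among them CadN (13394 bp, values 399 to 530), a cadherin of axon targeting, and caps (13200 bp, 622 to 741). Of synaptic vesicle and active zone genes, 14 of 28 did, among them Rim (13390 bp, 759 to 997) and Fife (12469 bp, 636 to 834), scaffolds of the release site. Of neuronal RNA-binding protein genes, 15 of 31 (48.4%) did, among them Syp and 5 domains of bru1, and of neuronal transcription factor genes 23 of 48 (47.9%), among them pdm3 (12481 bp, 744 to 1214) and hth (12394 bp, 327 to 444).

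Ion channel genes gave 12 of 29 (41.4%), among them Ca-alpha1T, qvr and Ih. Neurotransmitter receptor and transporter genes gave 17 of 44 (38.6%), among them the octopamine receptor Oamb (13218 bp, 634 to 800), GABA-B-R1 and the serotonin receptor 5-HT1A. Cytoskeleton genes gave 13 of 25, led by shot, a linker of actin and microtubules (13437 bp, 666 to 942). Shares were lower in other lists, with 4 of 30 glycolysis and energy genes (13.3%; Eno at a mean of 1115) and 2 of 27 translation and heat shock genes (7.41%). Clock genes (6 of 18), learning and second messenger genes (9 of 27) and Polycomb and chromatin genes (13 of 46) lay near the share of all genes. The lists also differed in how many genes lay largely in a long gap, which holds no deposited RNAPolII peak. This held for 8 of 27 translation and heat shock genes (29.6%) and 15 of 46 Polycomb and chromatin genes (32.6%). It held for 6 of 30 glycolysis and energy genes and 9 of 45 adhesion and axon guidance genes (20.0% each). It held for 2 of 29 ion channel genes (6.90%) and 24.4% of all protein-coding genes. The part of these gaps in the shares was not tested.

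Genes of cell types other than neurons were under domains as well. Muscle genes gave 8 of 24 (33.3%), glial genes 5 of 21 (23.8%), photoreceptor genes 7 of 27 (25.9%), fat body and blood cell genes 3 of 20 and testis genes 2 of 19 (10.5%). Largely in a long gap lay 10 of 27 photoreceptor genes (37.0%), 5 of 19 testis genes (26.3%) and 1 of 21 glial genes (4.76%). So did 4 of 24 muscle genes (16.7%) and 4 of 20 fat body and blood cell genes (20.0%). The domain over the flight muscle actin Act88F had values of 457 to 688 with no H3K4me3 peak above 35.8, and that over Act87E had 569 to 717.

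In the scaled values of the deposited table, the level of the domains differed little between the 10 groups of genotype and housing. Their share of the signal averaged 25.6% ± 1.7 in Or47b SH, 25.7% ± 1.9 in Or47b GH, 26.2% ± 0.7 in Or67d SH, 25.9% ± 2.1 in Or67d GH, 26.5% ± 0.7 in fru SH, 26.6% ± 0.1 in fru GH, 27% ± 0.3 in dsx SH, 26.5% ± 0.6 in dsx GH, 26.5% ± 0.6 in CS SH and 26.2% ± 0.4 in CS GH (SD, n = 3 each). The groups overlapped. Both Or47b groups and Or67d GH hold the 3 libraries that stood apart. The median value per kb of a group lay between 44.9 and 45.3 in all 10. The deposited values are reads divided by 1 factor per library, and such scaling can bring typical levels together. These medians therefore cannot tell whether the level of all domains changed.

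Single domains were steady too. The median coefficient of variation between replicates was 6.48% for domains, 10.3% for peaks of 2000 to under 8000 bp and 21.1% for shorter peaks, an order that goes with the reads per peak. The highest group mean exceeded the lowest by a median of 1.16-fold over the domains. It did so by more than 1.5-fold in 17 domains (0.865%), against 32.4% of all 21113 peaks, and by more than 2-fold in 3, with 2.13-fold as the most. The longest domain over fru is a common case, with 376 to 559 over all 30 libraries and overlapping genotypes.

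Mutants were compared with CS over both housings. All peaks with a mean of at least 10 were tested, 21076 in all, with limma on log2(value + 1), and a domain was called at a Benjamini-Hochberg adjusted p under 0.05 over all of them. All changes below are log2 of mutant minus CS, with the SE of the fit. The share of all peaks called is given for this fit only. Counts under other settings below have no such share beside them and do not show an excess in domains. The 4 comparisons share the same 6 CS libraries, so a CS library that was high or low moves all 4 at once. The median SE was 0.071 over the domains and 0.136 over all peaks, so smaller changes could be called in domains than elsewhere. The median change over the domains was -0.01 for Or47b, -0.01 for Or67d, and 0.00 for fru and dsx, beside 0.01, 0.01, 0.00 and 0.01 over all peaks. Scaling by 1 factor per library can hold such medians near 0.

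The Or47b mutant differed from CS in 7 domains, 3 higher and 4 lower (0.356%, against 0.56% of all peaks called). The domain over the mutated gene itself, with nompA and sha on either side (2R:11318614-11327118), had a low, median and high of 178, 211 and 252 in Or47b males, against 249, 280 and 322 in CS. It was lower by a change of -0.39 ± 0.09 (adjusted p 0.0218, limma), the ranges overlapped, and no H3K4me3 peak lay inside. This call was lost in edgeR on whole reads and with only the Or47b and CS libraries in the fit, and in 7 of 12 fits without 1 library. The other 6 domains had no overlap between the libraries of the mutant and of CS.

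The strongest rise was at hppy, which encodes happyhour, a kinase of the Ste20 family (2R:19217962-19226659). Values were 680, 720 and 733 (low, median, high) in Or47b males, against 449, 499 and 529 in CS, a change of 0.53 ± 0.06 (adjusted p 1.56e-06, limma). An H3K4me3 peak inside rose with it, at 151 ± 11 in Or47b males against 21.9 ± 5.8 in CS (SD, n = 6 each; change 2.78). The strongest fall was at 1 of 3 domains of Msp300, the nesprin that ties nuclei to the cytoskeleton (2L:5197260-5206472). Values were 373, 502 and 555 in Or47b males, against 668, 691 and 719 in CS, a change of -0.55 ± 0.08 (adjusted p 0.000125). H3K4me3 inside fell as well, at 9.82 ± 2.75 in Or47b males against 34.0 ± 11.4 in CS (change -1.67). The neighbouring Msp300 domain, 2L:5187896-5196839, was not called, with 616 ± 61 in Or47b males against 597 ± 42 in CS (change 0.04).

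Of the other 4, a stretch of 2L with no gene (2L:17339601-17349659) rose by 0.48 and another (2L:12948480-12957289) fell by 0.31, the second with a falling H3K4me3 peak (change -1.33). The domain over side-V, of the Sidestep family of adhesion proteins, rose by 0.30, and that over inaE, a lipase of phototransduction, and Clic fell by 0.29. Without the 3 libraries that stood apart, 11 domains were called, 8 higher and 3 lower, and neither side-V nor inaE was among them. Leaving out Or47b SH replicate 3 or CS GH replicate 3 gave 4 calls each.

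The Or67d mutant differed from CS in 8 domains, all lower and all on chromosome 3 (0.407%, against 1.08% of all peaks called, of which 0.508% higher and 0.569% lower). The largest change was at CTCF, pst and Sec63 (3L:7353904-7364196). CTCF encodes an insulator-binding zinc finger protein, pst an antiviral factor and Sec63 a component of protein entry into the endoplasmic reticulum. Values were 792, 893 and 909 (low, median, high) in Or67d males, against 1296, 1363 and 1530 in CS, a change of -0.66 ± 0.07 (adjusted p 2.86e-08, limma). The libraries did not overlap, and H3K4me3 inside was 1031 ± 47 in Or67d males against 1334 ± 142 in CS (SD, n = 6 each; change -0.36).

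The domain over Cad89D, Gr89a and Decay, a cadherin, a gustatory receptor and a caspase, fell by 0.37 with 2 H3K4me3 peaks that fell (changes -0.80 and -0.92). A stronger H3K4me3 peak that reached past its end was not called, with 229 ± 26 in Or67d males against 192 ± 12 in CS (change 0.24). A stretch of 3L with no gene (3L:17765484-17777452) fell by 0.31, and its H3K4me3 peak was at 1.09 ± 1.27 in Or67d males against 11.4 ± 3.7 in CS. The other 5, over Vta1 and Srrm234, dpr6, lncRNA:CR45562, Ctr9 with Herc4, and Stat92E with 2 metallothionein genes, had changes from -0.26 to -0.23. At Ctr9 the H3K4me3 peak went the other way, with 2280 ± 132 in Or67d males against 1926 ± 219 in CS. Over all H3K4me3 peaks 30.0% were called in Or67d males, and most of those in domains were lost with the spread of strong and weak peaks as a covariate, a limit on each H3K4me3 change given here. At CTCF, Cad89D and the stretch without a gene, RNAPolII was called under every other setting and in every fit without 1 library. The other 5 were not, and the count was sensitive to nearly any library. It was 5 without Or67d SH replicate 1, Or67d SH replicate 2, Or67d GH replicate 2, CS SH replicate 3 or CS GH replicate 1, it was 4 without Or67d GH replicate 1, CS SH replicate 1, CS SH replicate 2 or CS GH replicate 3, and 3 without Or67d SH replicate 3 or CS GH replicate 2. Without the 3 libraries that stood apart it was 31, with 14 higher and 17 lower.

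The fru mutant differed from CS in 10 domains, 6 higher and 4 lower (0.509%, against 1.04% of all peaks called). None of the 10 lay over fru itself. The gene carried 3 domains, with 447 ± 44, 372 ± 16 and 329 ± 38 in fru males against 438 ± 25, 416 ± 24 and 371 ± 21 in CS (SD, n = 6 each), and changes of 0.03, -0.16 and -0.18 (adjusted p 0.936, 0.371 and 0.398, limma). The largest change was close by on 3R, at hemo, CG7694 and fray (3R:18563901-18577105), where fray encodes a kinase that regulates ion transport. Values were 297, 333 and 375 (low, median, high) in fru males, against 571, 591 and 633 in CS, a change of -0.84 ± 0.06 (adjusted p 2.47e-10). H3K4me3 inside was 217 ± 29 in fru males against 418 ± 51 in CS (change -0.94). Around it, 9 of the 27 tested RNAPolII peaks within 100000 bp on either side were called lower and none higher, a stretch chosen after its values were seen, and the called ones had a median change of -0.87.

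The domain over Glys, which encodes glycogen synthase, with CG6912, CG3984 and CG3987 (3R:15135202-15148170) also fell. Values were 633, 658 and 749 in fru males, against 977, 995 and 1068 in CS, a change of -0.60 ± 0.06 (adjusted p 2.39e-08, limma). Of 5 H3K4me3 peaks inside, 2 were called lower (changes -1.31 and -1.62). The strongest was not called, with 267 ± 30 in fru males against 235 ± 24 in CS (change 0.18). Nor was a weaker one (change -0.46). A pair of stretches of 3R with no gene fell too. One (3R:7643500-7652082) had 226 ± 28 in fru males against 342 ± 28 in CS, and the other (3R:26144733-26152747) had 296 ± 32 in fru males against 383 ± 46 in CS. None of the libraries of these 4 domains overlapped between fru males and CS.

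The 6 higher domains changed by 0.25 to 0.44. Those over genes were jvl with btsz, where btsz encodes a synaptotagmin-like protein (965 ± 45 in fru males, 743 ± 38 in CS, with a rising H3K4me3 peak, change 0.94), scb, an integrin alpha subunit (607 ± 16 in fru males, 479 ± 27 in CS), qua, a villin-like actin-binding protein (405 ± 25 in fru males, 305 ± 30 in CS), and Idgf1, Idgf2 and Idgf3, chitinase-like growth factors (524 ± 39 in fru males, 440 ± 20 in CS). The other 2 lay on 2R over no gene. The call at Idgf1 to Idgf3 was lost in edgeR and DESeq2 on whole reads and in 10 of 12 fits without 1 library. That at qua was lost in edgeR and in 6 of 12 such fits, and that at 2R:729022-738030 in 1 of 12. Leaving out 1 library gave 7 to 11 calls. Without the 3 libraries that stood apart, none of which is a fru or CS library, there were 30 calls, 17 higher and 13 lower.

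The dsx mutant differed from CS in 38 domains, 20 higher and 18 lower (1.93%, against 1.84% of all peaks called, of which 0.954% higher and 0.883% lower). The balance turned with the method, with 6 higher and 13 lower in edgeR on whole reads, 11 higher and 21 lower in DESeq2 on whole reads, and 28 higher and 9 lower after quantile normalization. The largest changes of any domain in the series lay at bru3, which encodes an RNA-binding protein of the CELF family. Of its 3 domains, 2 fell and 1 rose. At 3L:13712775-13720924 values were 159, 185 and 226 (low, median, high) in dsx males, against 345, 376 and 404 in CS, a change of -1.01 ± 0.08 (adjusted p 7.56e-11, limma). At 3L:13746068-13754536 they were 145, 172 and 197 in dsx males, against 305, 333 and 374 in CS (-0.97 ± 0.08).

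The third bru3 domain, 3L:13683434-13692404, went up, with 624, 691 and 718 in dsx males, against 304, 385 and 426 in CS (0.85 ± 0.08, adjusted p 5.34e-09), and an H3K4me3 peak inside rose by 1.01. A domain over no gene on the far side, 3L:13822931-13831428, fell like the lower pair, with 162 ± 16 in dsx males against 310 ± 20 in CS (-0.94), and its H3K4me3 peak fell by 1.28. From the raised domain to this last one, 18 of 21 tested RNAPolII peaks were called lower and 1, the raised domain, higher. The 18 had a median change of -1.0. This stretch was chosen after its values were seen. At the raised and the lowest bru3 domain, the libraries of the other mutants and of CS lay apart from those of dsx, as the plot of values by library shows.

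**Figure D3:**
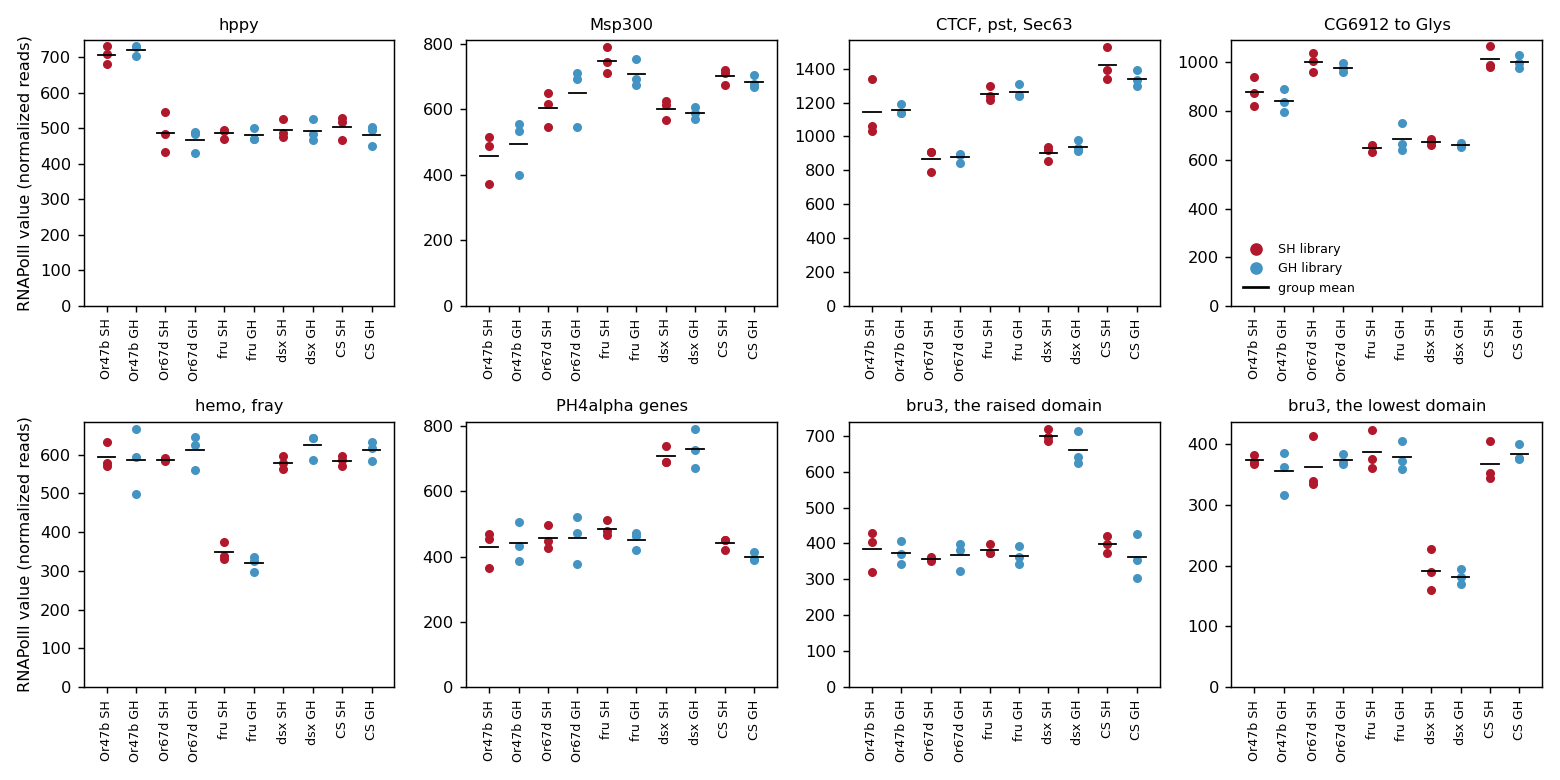
RNAPolII value (normalised reads, linear axis from 0) of 8 called domains in each of the 30 libraries, grouped by genotype and housing, with SH libraries in red, GH libraries in blue and group means as bars. The Or47b libraries at hppy, the fru libraries at fray, the dsx libraries at the prolyl hydroxylase genes and bru3, and the fru and dsx libraries at Glys lie apart from all other libraries of their panel, in SH and in GH.

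A domain over PH4alphaMP, PH4alphaNE1 and PH4alphaSG1, subunits of the prolyl hydroxylase that modifies collagen (3R:30495532-30505695), rose as strongly. Values were 671, 709 and 793 in dsx males, against 391, 417 and 452 in CS, a change of 0.77 ± 0.08 (adjusted p 3.45e-08), and H3K4me3 inside was 76.3 ± 18.2 in dsx males against 34.8 ± 9.5 in CS. The Glys domain fell to 667 ± 12 in dsx males, against 1008 ± 35 in CS (-0.59), and 2 of its 5 H3K4me3 peaks fell by 1.58 and 2.29. The CTCF domain fell to 922 ± 40 in dsx males, against 1380 ± 82 in CS (-0.58), and its H3K4me3 peak by 0.50. Other clear falls were at toc, a microtubule-associated protein (384 ± 30 in dsx males, 557 ± 38 in CS), at ari-1 and mir-210, a ubiquitin ligase and a microRNA (413 ± 40 in dsx males, 551 ± 47 in CS), and at ball and His2Av, a histone kinase and a histone variant (786 ± 60 in dsx males, 1039 ± 71 in CS).

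The dsx calls in the 2 directions differed in density. The 20 higher domains had a median of 36.6 per kb (26.7 to 56.1), 7 held no H3K4me3 peak and 1 held a strong one. The 18 lower domains had a median of 59.9 per kb (32.9 to 109), and 9 of them held a strong H3K4me3 peak. Genes under the higher ones included lbl (305 ± 31 in dsx males, 228 ± 31 in CS), inv (302 ± 29 in dsx males, 238 ± 21 in CS), and lab (387 ± 20 in dsx males, 310 ± 32 in CS), all homeobox genes, as well as zfh1, rib and Ptx1. Fad2, the desaturase of female pheromone synthesis, had 398 ± 31 in dsx males against 315 ± 37 in CS (change 0.34, adjusted p 0.0346), with overlapping libraries. Among the lower ones were the heat shock genes Hsp68, beside SMC1, and lncRNA:Hsromega. Both of these calls were lost after quantile normalization and in 8 of 12 fits without 1 library.

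The same slope ran through the domains as a whole. In dsx males the median change was -0.07 in the 491 densest domains and 0.09 in the 491 sparsest. It was -0.05 and 0.05 in fru males, -0.04 and 0.04 in Or67d males, and -0.03 and 0.01 in Or47b males. The spread of a library, taken as the mean log2 value of peaks above the upper quartile minus that of peaks below the median, moved with this slope. It was 3.57 ± 0.05 in dsx males, 3.59 ± 0.05 in fru males, 3.64 ± 0.10 in Or67d males and 3.68 ± 0.13 in Or47b males, against 3.68 ± 0.08 in CS (SD, n = 6 each). With the spread as a covariate, 51 domains were called in dsx, 23 higher and 28 lower. After quantile normalization, which forces the spread to be equal, there were 37. The calls at inv, rib, Ptx1 and Fad2 were lost with the covariate and in both fits on whole reads, that at lab in both fits on whole reads and that at zfh1 in edgeR, while bru3, PH4alphaMP, Glys, CTCF, toc, ari-1, lbl and His2Av were called in all 11 other settings and in all 12 fits without 1 library. The dsx count was 22 without dsx SH replicate 2, 25 without dsx SH replicate 3, 21 without dsx GH replicate 2, 24 without CS SH replicate 1 and 20 without CS GH replicate 2. Without the 3 libraries that stood apart, none of which is a dsx or CS library, it was 125, with 63 higher and 62 lower. The share of all peaks called in that fit is not given, so 125 cannot be set against the 1.84% above.

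**Figure D4:**
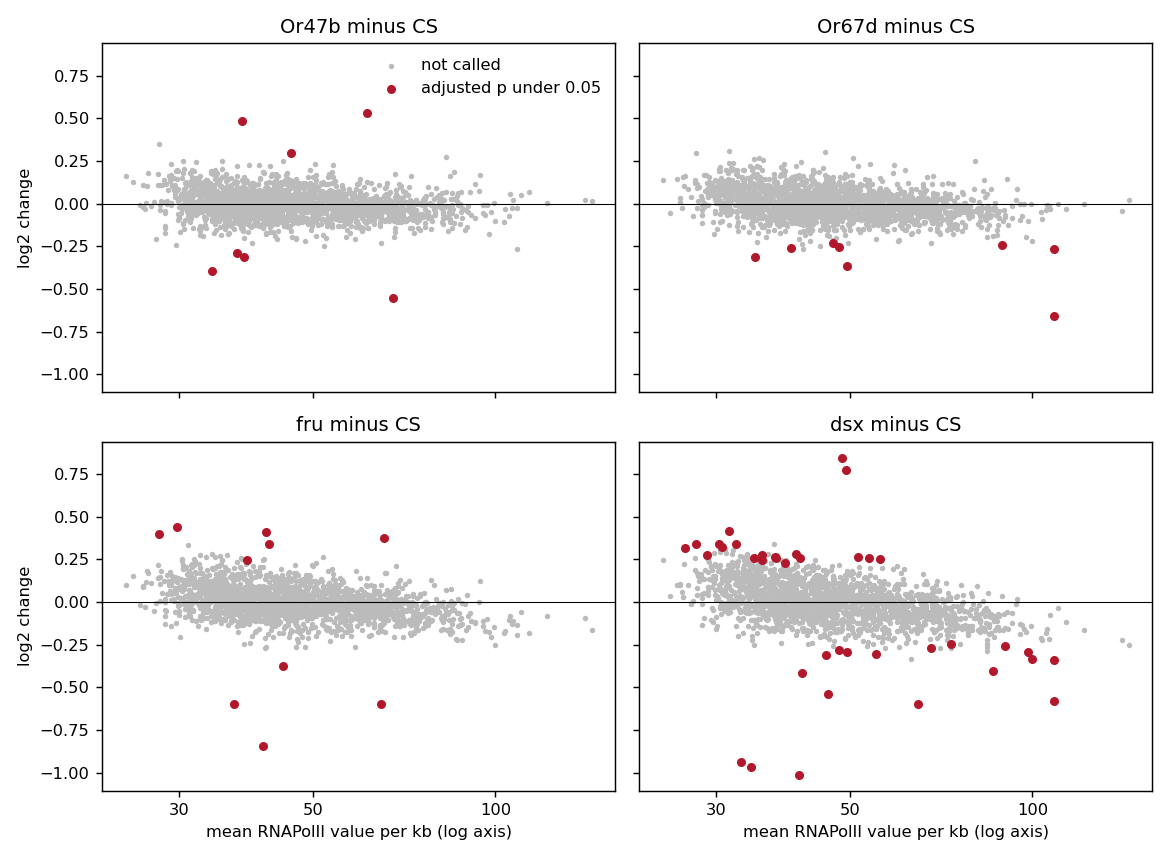
Log2 change of each of the 1966 domains against its mean RNAPolII value per kb (log axis), 1 panel per mutant minus CS, with domains called at an adjusted p under 0.05 in red. The cloud tilts downwards with density in dsx, where the median change is 0.09 in the 491 sparsest and -0.07 in the 491 densest domains.

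Of the 57 domains called in any mutant, 51 were called in 1 mutant and 6 in 2. A domain called in 1 mutant could also move in the others without a call. The lbl domain, called in dsx only, changed by 0.20 in Or47b, 0.31 in Or67d, 0.22 in fru and 0.42 in dsx. That over lncRNA:Hsromega changed by -0.20, -0.23, -0.20 and -0.27 in the same order. The hppy domain, called in Or47b, changed by 0.53, -0.05, -0.03 and 0.00. Since all 4 comparisons use the same CS libraries, the values of the 6 are given side by side without a test of the overlap. The CTCF domain had means of 1149 ± 111 in Or47b, 873 ± 47 in Or67d, 1257 ± 38 in fru and 922 ± 40 in dsx, against 1380 ± 82 in CS (SD, n = 6 each). The Glys domain had 860 ± 53 in Or47b, 989 ± 30 in Or67d, 667 ± 42 in fru and 667 ± 12 in dsx, against 1008 ± 35 in CS. The Cad89D domain had 518 ± 33 in Or47b, 376 ± 30 in Or67d, 499 ± 25 in fru and 395 ± 18 in dsx, against 485 ± 35 in CS.

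The other 3 were less distinct. The domain over Vta1 and Srrm234 had 956 ± 77 in Or47b, 808 ± 48 in Or67d, 849 ± 46 in fru and 766 ± 32 in dsx, against 970 ± 60 in CS. That over lncRNA:CR45562 had 508 ± 16 in Or47b, 444 ± 22 in Or67d, 460 ± 49 in fru and 436 ± 25 in dsx, against 529 ± 31 in CS. A stretch of 2R with no gene (2R:729022-738030) had 263 ± 37 in Or47b, 252 ± 26 in Or67d, 271 ± 23 in fru and 261 ± 28 in dsx, against 190 to 231 (lowest to highest) in CS. There the changes of all 4 mutants, against the same CS libraries, were 0.29 to 0.40, and those of fru and dsx were called.

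No domain was called for housing. In none of the 5 genotypes did SH differ from GH at an adjusted p under 0.05 in limma, with 24 domains at an unadjusted p under 0.05 in Or47b, 36 in Or67d, 30 in fru, 53 in dsx and 41 in CS, of 1966. No peak of any length was called either (0.0% of 21076). Pooled over the 5 genotypes, with 15 libraries a side, the count was again 0, with 32 at an unadjusted p under 0.05. No domain was called for a difference between a mutant's housing effect and that of CS. edgeR on whole reads and DESeq2 on whole reads called 0 as well, with 14 to 44 and 13 to 35 domains at an unadjusted p under 0.05 over the 10 housing comparisons. The pooled changes ran from -0.13 to 0.12, and those within a genotype from -0.37 to 0.35. Differences of a mutant's housing effect from that of CS ran from -0.56 to 0.52, both in dsx. At the median SE of 0.045, a pooled change carries a 95% interval of 0.09 to either side, and at 0.100 one within a genotype carries 0.20. A difference from the housing effect in CS carries 0.28, at 0.142. A call after adjustment over all peaks takes a larger change than these widths, and none of the changes in the ranges above was called.

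H3K4me3 peaks inside the domains were tested in the same way with all 14513 H3K4me3 peaks, of which 3201 lay in domains. In Or47b males 29 of the 3201 were called, 11 higher and 18 lower, beside 0.806% of all H3K4me3 peaks called, 0.427% higher and 0.379% lower. In fru males 74 were called, 38 higher and 36 lower, beside 2.2% of all, 1.26% higher and 0.944% lower. In dsx males 166 were called, 103 higher and 63 lower, beside 5.4% of all, 3.42% higher and 1.98% lower. In Or67d males 1020 were called, 569 higher and 451 lower, beside 30.0% of all, 17.5% higher and 12.5% lower. The balance in Or67d turned with scaling, with 404 higher and 548 lower after TMM rescaling, and was 658 higher and 81 lower among peaks with a mean of at least 50. In Or47b it was 20 higher and 20 lower after quantile normalization. The H3K4me3 spread was 5.85 ± 0.16 in Or67d males, against 5.27 ± 0.27 in CS, and with the spread as a covariate 26 were called, 12 higher and 14 lower. Pooled housing gave 0 (0.0%), with 168 of 3201 at an unadjusted p under 0.05 in limma, 153 in edgeR and 129 in DESeq2. These counts moved by over 1.5 times with single libraries. In Or47b males it was 47 without CS GH replicate 3. In Or67d males it was 449 without CS GH replicate 2, 606 without CS SH replicate 2 and 636 without Or67d SH replicate 3. In fru males it was 152 without fru SH replicate 1, 150 without CS GH replicate 3, 44 without fru SH replicate 3, 45 without CS SH replicate 2 and 49 without CS GH replicate 2. In dsx males it was 550 without CS GH replicate 3, 324 without dsx SH replicate 1, and 61 to 97 without dsx SH replicate 3, dsx GH replicate 3, CS SH replicate 2, CS GH replicate 1 or CS GH replicate 2.

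Where RNAPolII over a domain was called, H3K4me3 inside it could be looked at as a second antibody on separate brains. Called domains with a tested H3K4me3 peak numbered 6 in Or47b, 7 in Or67d, 8 in fru and 27 in dsx, and in 3, 6, 4 and 8 of them an H3K4me3 peak was called. Beside these counts, 29, 758, 69 and 152 of the 1570 domains with an H3K4me3 peak held a called one, in the same order. Of the H3K4me3 peaks called in domains called for RNAPolII, 3 of 3, 7 of 8, 5 of 5 and 9 of 9 had the direction of the RNAPolII change, and Ctr9 in Or67d was the exception. Of the domains with a called H3K4me3 peak, most were not called for RNAPolII: 26 of 29 in Or47b, 752 of 758 in Or67d, 65 of 69 in fru and 144 of 152 in dsx. With only 7, 8, 10 and 38 domains called for RNAPolII, most had to be uncalled.

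**Figure D5:**
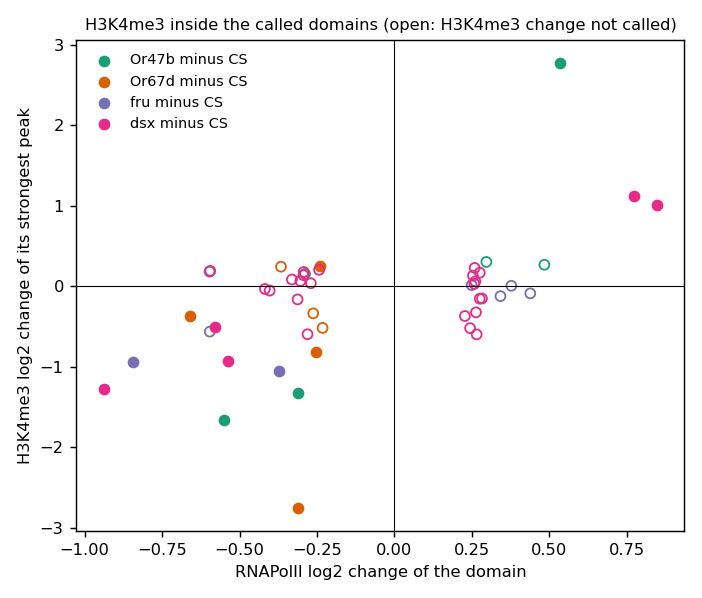
Log2 change of RNAPolII over a called domain against the log2 change of the strongest H3K4me3 peak inside it, 1 point per domain and mutant (27 in dsx, 8 in fru, 7 in Or67d and 6 in Or47b). Filled points, whose H3K4me3 change was called, lie in the same quadrants as the RNAPolII change except the Ctr9 domain in Or67d, and open points scatter around 0.

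Described by gene list, few listed genes had a called domain. Neuronal RNA-binding protein genes, with 33 domains, had 1 higher and 2 lower in dsx, all bru3, and none in the other mutants. Neuronal transcription factor genes, with 32 domains, had 1 higher in dsx, zfh1. Cytoskeleton genes, with 18, had Msp300 in both Or47b (lower) and dsx (another of its domains, higher, change 0.26). The dsx call at Msp300 was lost with the spread as a covariate, in edgeR and DESeq2, and in all 12 fits without 1 library. Translation and heat shock genes had both of their 2 domains lower in dsx, those over Hsp68 and lncRNA:Hsromega. Photoreceptor genes, with 7 domains, had 1 lower in Or47b, inaE. The 14 domains of Polycomb and chromatin genes had CTCF, and the 4 of glycolysis and energy genes had Glys. The 47 domains of adhesion and axon guidance genes, 25 of receptors and transporters, 18 of synaptic genes and 16 of ion channels had no call in any mutant, with median changes between -0.12 and 0.00. This holds for the listed genes only. Called domains over side-V (Or47b), dpr6 (Or67d), Cad89D (Or67d and dsx) and scb (fru) lay outside the adhesion list. Of all peaks, 0.56% were called in Or47b, 1.08% in Or67d, 1.04% in fru and 1.84% in dsx, at which lists of this size would hold few calls or none.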

How the data were processed

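CUT&RUN was done with antibodies to RNAPolII and H3K4me3 in 60 libraries, 30 per antibody, in 10 groups of genotype and housing. Trim Galore, Bowtie2, MACS2, DESeq2 and ChIPseeker were used per the submitters' processing notes, which are known here without their order. The sources used here do not say how peaks were merged or filtered, or which build and counter served. The authors deposited, for each antibody, a table of signal with all libraries on shared peaks. From the values, these are reads divided by 1 factor per library, since all were whole multiples of a step to within 0.01 reads. That step was less sure for 2 RNAPolII and 4 H3K4me3 libraries, which the whole-read tests leave out.

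Peak positions, and the arm names, are those of the deposited tables. Gene names came from overlap with gene spans of RefSeq on Release 6 plus ISO1 MT, without strand. Strong H3K4me3 peaks lay over the end of a gene in 83.4% of cases, against 40.8% after a shift of 5000 bp. No sequence is printed, since no genome was used here.

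Values were fitted as log2(value + 1) with limma 3.58.1 under R 4.3.3 (1 mean per group of the 10, lmFit, then eBayes with trend), two-sided, over all peaks with a mean of at least 10, with Benjamini-Hochberg adjustment within each comparison. edgeR 4.0.16 and DESeq2 1.42.0 were alternatives on whole reads, and others are given in the closing section. In data simulated on the dsx comparison, 50.7% of 67 domains changed by 1.25-fold were called, 98.5% of 67 at 1.5-fold and 100% of 66 at 2-fold, and 9 unchanged peaks were called. The simulated libraries were drawn independently around 1 mean per peak, save for the changed domains. They held no libraries that stood apart and no difference in spread between genotypes. The shares called in the real libraries may therefore differ. P-values measure the spread between the labelled biological replicates.

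The domains and gene lists were chosen with earlier results of these data known. Named are the 12 longest domains, the 10 highest by value and by value per kb, the 5 lowest, those over most genes, those with most or no H3K4me3, those over mutated or listed genes and up to 8 called domains per comparison and direction. Not every domain so named is described. Others named among the dsx calls were chosen after their values were seen.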

Additional observations from a re-analysis of the deposited data

How the results depend on the processing

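Of the domains called against CS, 4 of 7 in Or47b, 3 of 8 in Or67d, 7 of 10 in fru and 12 of 38 in dsx were called in each of 11 other settings and 12 fits without 1 library, and none changed sign. With log2(value + 10), no filter on the mean, a mean of at least 50 or TMM rescaling, RNAPolII counts stayed within 1.5 times. Counts that moved further are given here in the order Or47b, Or67d, fru, dsx, and the cause was not tested. Shares of all peaks called under these settings are not given. RNAPolII gave 27, 32 and 34 in the first 3 with the spread of strong and weak peaks as a covariate. Without the 3 libraries that stood apart it gave 11, 31, 30 and 125. With only the libraries compared in the fit it gave 4, 3, 26 and 117. In Or67d it gave 3 after quantile normalization, 3 in edgeR and 5 in DESeq2, and in dsx 19 in edgeR. Leaving out 1 library gave 4 to 8, 3 to 12, 7 to 11 and 20 to 38. Housing gave 0 in all 217 RNAPolII and 39 H3K4me3 values under other settings.

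For H3K4me3 inside the domains, Or47b gave 18 at a mean of at least 50. Or67d gave 224 after quantile normalization, 26 with the covariate, 382 in edgeR and 502 in DESeq2 (362 higher and 140 lower). fru gave 155 after quantile normalization and 49 with only the libraries compared. dsx gave 65 with the covariate, 103 in edgeR and 100 in DESeq2 (77 higher and 23 lower). Leaving out 1 library gave 23 to 47, 449 to 1409, 44 to 152 and 61 to 550.

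Replicate numbers were tried as a block. The numbers are those of the sample titles. The deposited tables number the CS libraries otherwise, and a block by those numbers was not run. Deviations of same-numbered libraries from their group means had correlations from -0.23 to 0.41 (median 0.00) for RNAPolII, against a median of 0.00 for other numbers, and from -0.10 to 0.32 (median 0.08) for H3K4me3, against a median of -0.03. Not every same-numbered pair was over 0.1 with either antibody, so the numbers were not taken as pairing the samples. That rule cannot tell whether libraries of the same number share an effect. The replicate block gave 8, 8, 12 and 42 RNAPolII domains, beside 7, 8, 10 and 38 without it. It gave 62, 1334, 148 and 531 H3K4me3 peaks, beside 29, 1020, 74 and 166 without it.

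A length of at least 6000 bp gave 3646 domains with 42.5% of the signal and a median of 45.8 per kb, and at least 10000 bp gave 977 with 14.6% and 44.7. Asking a gene to cover at least 50% of a domain left 1065 over a gene, and counting only H3K4me3 peaks of at least 100 left 30.0% with one. Depth limits small changes: housing within a genotype rests on 3 libraries a side, and intervals leave out any spread not seen between these libraries.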
